A study of Homo sapiens with 2 samples.

Results

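The claudins and other proteins of the tight junction were examined in the RNA of CWR22rv1 prostate cancer cells with and without Akt1 and Akt2. Members were 9 genes taken by symbol from the expression table of 19607 genes, namely the claudins CLDN1, CLDN3, CLDN4, CLDN7 and CLDN12, the other transmembrane proteins OCLN and F11R, and the scaffolds TJP1 and TJP3. All 9 were in the table, and each had at least 10 reads in both libraries together, as did 13318 genes of the whole table.

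CWR22rv1 is a human prostate cancer cell line that expresses the androgen receptor. Total RNA was sequenced from 1 library of Akt1/2 knockout cells (Akt1/2 DKO) and 1 library of cells labelled wild type (control), with no other difference of genotype or treatment given in the labels. The knockout was made with CRISPR/Cas9 and isolated as monoclonal cells, so the Akt1/2 DKO library stands for a single clone, and which of the study's clones it was is not given in the labels. Because each group has 1 library, no difference here has a replicate check, no p-value is given, and a difference between the genotypes and a difference between 1 clone and the control culture cannot be told apart.

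Tight junctions seal the space between neighbouring epithelial cells near their apical side. Claudins are small membrane proteins with 4 transmembrane passes whose outer loops pair across the cell border and set which ions and solutes can pass, while occludin and the junctional adhesion molecules accompany them in the membrane. Inside the cell, the zonula occludens scaffolds bind the claudin tails and tie the strands to actin and to polarity complexes, and in epithelial cancers including that of the prostate the levels of single claudins are known to go up or down.

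The libraries held 9970820 (control) and 10718650 (Akt1/2 DKO) estimated reads, and values below are reads, FPKM (reads scaled by transcript length and library size), CPM (reads scaled by library size alone) or log2 fold changes of reads after TMM scaling. AKT1 had 2645 reads in the control and 591 in the Akt1/2 DKO library, 4.97-fold lower, and AKT2 had 2362 and 667, 3.93-fold lower, so both went in the direction of the labels. All 12 prostate luminal markers examined were detected in both libraries and summed to 3161 CPM in control and 4085 CPM in Akt1/2 DKO cells. The 10 fibroblast markers summed to 123 and 37.1 CPM, with VIM giving 897 of 1228 reads in control cells and 84 of 398 in Akt1/2 DKO cells, while DCN and THY1 had at most 3 reads in either library. The 7 endothelial markers held 15 and 28 reads in all with CDH5 at 0, and the 6 leukocyte markers 53 and 70 reads with CD3E and LYZ at 0. As the RNA came from whole cultures, fewer cells expressing a gene and less RNA per cell cannot be told apart.

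CLDN1, CLDN3 and CLDN4 were higher in Akt1/2 DKO cells by more than 4-fold each, while CLDN7 and CLDN12 stayed within 1.5-fold. The scaffold TJP1 was higher and the adhesion molecule F11R lower by a little over 1.5-fold, and OCLN and TJP3 moved by less than that. Thus 5 of 9 members (55.6%) passed 1.5-fold, with 4 higher and 1 lower. Among all 13318 genes with at least 10 reads, 30.9% passed 1.5-fold, 15.9% being higher and 15% lower, so such a change was common. Among the 10956 genes with at least 100 reads the share was 23.2%, and 4 of the 8 members with that many reads passed. The median log2 fold change was 0.50 over the members and 0.005 over all genes.

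**Figure D1:**
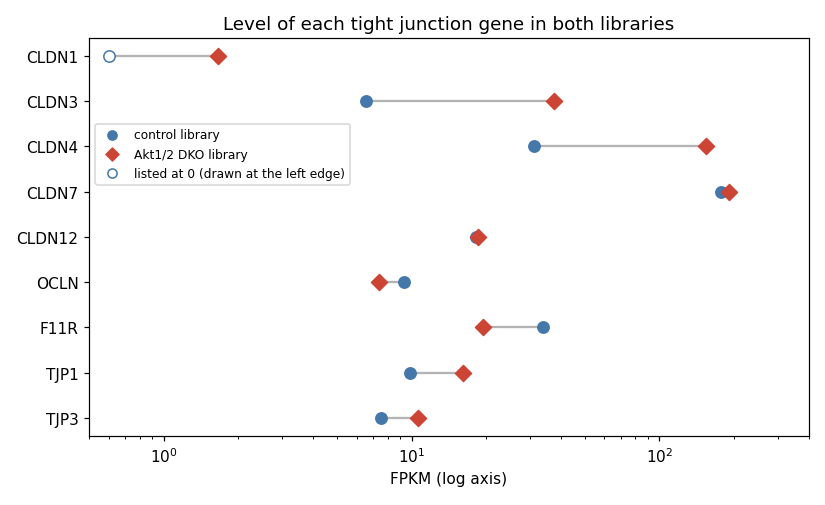
FPKM of each member (horizontal log axis) in the control library (circles) and the Akt1/2 DKO library (diamonds), with 1 library per group and no error bars. CLDN4 moves from 31.2 to 155 and CLDN3 from 6.57 to 37.5, while the symbols for CLDN7 and CLDN12 nearly touch.

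The promoter windows of 4 claudins are shown because they set CLDN1, CLDN3 and CLDN4, the members with the largest differences, beside CLDN7, the claudin with the highest FPKM in both libraries. Each runs from 250 bases before to 50 after a start site, 5′ to 3′ on the strand of the gene, as given by RefSeq for GRCh38.p14. The windows are chr3:190322397-190322696 on the minus strand for CLDN1, chr7:73770221-73770520 on the minus strand for CLDN3, chr7:73830746-73831045 on the plus strand for CLDN4 and chr17:7262429-7262728 on the minus strand for CLDN7. Capitals mark CACCTG or its reverse complement CAGGTG, the E-box that repressors of the Snail family bind.
CLDN1: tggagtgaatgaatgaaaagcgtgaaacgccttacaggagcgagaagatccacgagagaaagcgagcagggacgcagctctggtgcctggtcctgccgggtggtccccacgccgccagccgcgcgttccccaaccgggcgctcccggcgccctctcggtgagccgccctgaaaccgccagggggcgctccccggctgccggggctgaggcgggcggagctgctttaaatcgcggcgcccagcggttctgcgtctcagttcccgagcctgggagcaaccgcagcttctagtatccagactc
CLDN3: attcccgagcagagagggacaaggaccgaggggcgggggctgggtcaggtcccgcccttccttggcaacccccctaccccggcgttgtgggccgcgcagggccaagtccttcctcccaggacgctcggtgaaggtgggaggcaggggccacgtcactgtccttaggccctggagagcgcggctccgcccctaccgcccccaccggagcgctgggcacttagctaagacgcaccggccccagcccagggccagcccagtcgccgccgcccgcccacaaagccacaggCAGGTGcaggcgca
CLDN4: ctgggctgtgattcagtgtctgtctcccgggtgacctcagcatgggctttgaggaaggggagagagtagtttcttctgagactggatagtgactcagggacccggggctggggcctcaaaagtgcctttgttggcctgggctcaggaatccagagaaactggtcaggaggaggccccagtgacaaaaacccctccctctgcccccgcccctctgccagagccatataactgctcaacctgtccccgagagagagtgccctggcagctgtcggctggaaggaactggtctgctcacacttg
CLDN7: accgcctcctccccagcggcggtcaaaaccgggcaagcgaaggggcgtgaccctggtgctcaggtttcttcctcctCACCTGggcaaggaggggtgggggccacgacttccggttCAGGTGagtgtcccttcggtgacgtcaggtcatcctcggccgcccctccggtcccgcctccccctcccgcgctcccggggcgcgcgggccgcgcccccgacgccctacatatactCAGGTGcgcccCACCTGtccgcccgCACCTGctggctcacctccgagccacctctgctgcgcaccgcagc

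The E-box stood 5 times in this CLDN7 window, 0 times in the other CLDN7 window and 1 time in that of CLDN3, and the windows of CLDN1 and CLDN4 held none. Over all 35116 RefSeq windows of the same length, 20.6% held at least 1 E-box on either strand. Of 14 windows found for 8 members, 6 held one, belonging to CLDN3, CLDN7, OCLN, TJP1 and TJP3. The forkhead motif GTAAACA, searched on both strands because forkhead (FOXO) factors are direct Akt substrates, was in none of the 14 and in 3.42% of all windows. The E-box was therefore found in windows of members that were higher (CLDN3, TJP1, TJP3), lower (OCLN) and nearly level (CLDN7). Of these, TJP3 and OCLN moved by less than 1.5-fold. These matches describe letters in a window and not binding.

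CLDN1 (ENSG00000163347, chr3:190305701-190322475, minus strand, GRCh38) encodes a barrier-forming claudin that the skin needs to hold water. Control cells gave 0 reads of it and Akt1/2 DKO cells 62, with FPKM of 0 and 1.65. Against a floor of 3 reads in the control library it was 18.6-fold higher. The 95% counting interval of the ratio had a lower limit of 14.7-fold and no upper limit. CLDN1 was thus detected in 1 library only, and in that library it had the lowest FPKM of the 9 members. The genes of chromosome 3 were lower as a whole in Akt1/2 DKO cells, with a median log2 fold change of -0.53 over 666 genes with at least 50 reads, of which 579 were below 0, against medians of -0.21 to 0.11 on the other chromosomes. CLDN1 therefore moved against the genes of its chromosome. Its log2 fold change relative to their median was 4.75 against the same floor of 3 reads.

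CLDN3 (ENSG00000165215, chr7:73768997-73770270, minus strand) and CLDN4 (ENSG00000189143, chr7:73799542-73832693, plus strand) encode sealing claudins that are also receptors of the Clostridium perfringens enterotoxin, and they lie 29.3 kb apart. CLDN3 had 84 reads in the control and 515 in the Akt1/2 DKO library, and FPKM of 6.57 and 37.5. Its ratio was 5.52-fold higher with a counting interval of 4.38 to 7.04. CLDN4 had 595 and 3140 reads, and FPKM of 31.2 and 155. This gene was 4.76-fold higher, with an interval of 4.36 to 5.20. The intervals of the neighbouring genes overlapped, and whether their ratios differ was not tested. Differences at least as large and in the same direction were found for 3.33% of all genes for CLDN3 and 3.96% for CLDN4. Of the 50-base windows of the CLDN3 transcripts 1.8%, and of those of CLDN4 0.612%, occur without mismatch in transcripts of another annotated gene. All 22 shared windows of CLDN3 are shared with CLDN4. Matches with mismatches or outside annotated transcripts were not examined.

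CLDN7 (ENSG00000181885, chr17:7259903-7263983, minus strand), a claudin found along the lateral membrane of many epithelia, was the most abundant member by FPKM in both libraries, although CLDN4 had more reads in Akt1/2 DKO cells. CLDN7 had 1892 and 2210 reads and FPKM of 178 and 192. Its log2 fold change was 0.07 with a counting interval of -0.02 to 0.16, which includes no change. CLDN12 (ENSG00000157224, chr7:90383721-90513402, plus strand), which lacks the tail motif that binds scaffolds in most claudins, had 441 and 547 reads and FPKM of 18.1 and 18.5. Its log2 fold change was 0.16 with an interval of -0.02 to 0.34. For both genes the intervals lay wholly within 1.5-fold. CLDN12 overlaps GTPBP10 and CDK14 and shares 12.6% of its 50-base windows with these and other annotated genes, so their reads may be among its own. CLDN7 shares 8.25%, all of it with AC003688.1, which was not analysed here, so its value carries a like uncertainty.

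**Figure D2:**
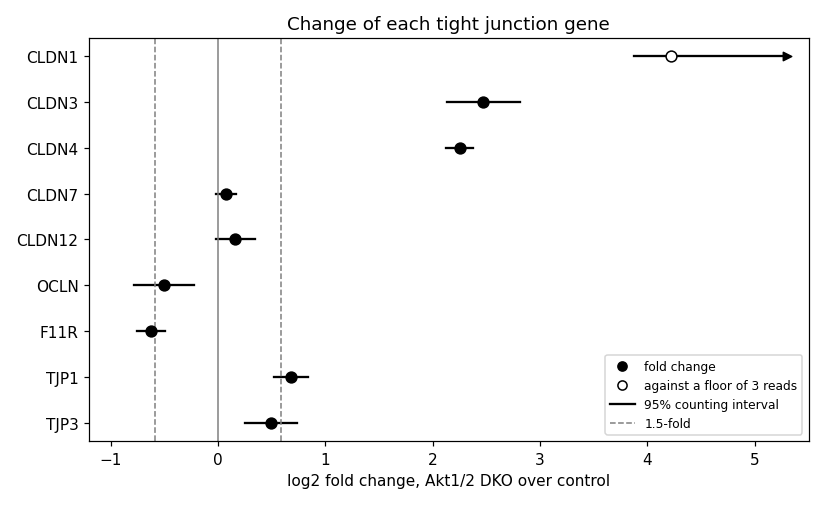
Log2 fold change of each member, Akt1/2 DKO over control, with 95% counting intervals (horizontal bars) and dashed lines at 1.5-fold. The open point for CLDN1 is set against a floor of 3 reads and its bar has no upper end. CLDN1, CLDN3 and CLDN4 lie wholly past the right dashed line, and the bars of F11R and TJP1 cross their dashed lines.

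The makeup of the claudin transcripts differed between the libraries. Summed over all 24 claudin genes in the table, FPKM was 246 in control cells and 418 in Akt1/2 DKO cells. CLDN7 made up 72.1% of it in control and 45.9% in Akt1/2 DKO cells. CLDN4 went from 12.7% to 37.1%, and CLDN3 from 2.67% to 8.96%. The ratio of CLDN7 to CLDN4 by FPKM was accordingly 5.70 in control and 1.24 in Akt1/2 DKO cells, although the level of CLDN7 itself was nearly the same. CLDN12 made up 7.35% and 4.42%, and CLDN1 reached 0.395% in Akt1/2 DKO cells.

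OCLN (ENSG00000197822, chr5:69492292-69558104, plus strand) encodes occludin, which spans the membrane 4 times and takes part in setting the junction's leak of larger solutes. It had 241 and 189 reads and FPKM of 9.34 and 7.37. Occludin was 1.41-fold lower in Akt1/2 DKO cells, with a counting interval of 1.16 to 1.72 that excludes no change and includes 1.5-fold. F11R (ENSG00000158769, chr1:160995211-161021348, minus strand) encodes the junctional adhesion molecule JAM-A, an immunoglobulin-like protein that recruits polarity proteins to young contacts. It had 1213 and 873 reads, and FPKM of 34.1 and 19.5. JAM-A transcripts were 1.54-fold lower, with an interval of 1.41 to 1.68, and with total count scaling the log2 fold change of F11R was -0.58, just inside 1.5-fold. Both transmembrane members outside the claudin family thus had log2 fold changes below 0, opposite to CLDN3 and CLDN4. F11R shares 35.8% of its 50-base windows with other annotated genes, nearly all of it with AL591806.3, which was not analysed here, and OCLN shares 8.6%, mostly with the pseudogene OCLNP1, so their values carry that uncertainty.

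TJP1 (ENSG00000104067, chr15:29699367-29968865, minus strand) encodes ZO-1, the scaffold that clusters claudins into strands and links them to actin. It had 524 and 930 reads and FPKM of 9.84 and 16.2. The scaffold was 1.60-fold higher with a counting interval of 1.44 to 1.78. TJP3 (ENSG00000105289, chr19:3708109-3750813, plus strand) encodes ZO-3, a relative confined mostly to epithelia. It had 232 and 363 reads, and FPKM of 7.53 and 10.6. TJP3 was 1.41-fold higher, with an interval of 1.19 to 1.67. Their intervals overlap, and neither lies wholly past 1.5-fold.

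The members nearest to 1.5-fold were TJP3 and OCLN on its inner side, at 1.41-fold, and F11R and TJP1 on its outer side, at 1.54-fold and 1.60-fold. Counting intervals excluded no change for 7 of the 9 members, and lay wholly past 1.5-fold for 3, namely CLDN1, CLDN3 and CLDN4. The intervals cover counting error only. Shares of all genes by interval are not given here, so neither count can be read against them. By FPKM, the control library ordered the members as CLDN7, F11R, CLDN4, CLDN12, TJP1, OCLN, TJP3, CLDN3 and CLDN1. In Akt1/2 DKO cells CLDN4 and CLDN3 followed CLDN7 directly, ahead of F11R. F11R and CLDN12, at 19.5 and 18.5 FPKM in Akt1/2 DKO cells, were close neighbours in that order, as were TJP1 and OCLN, at 9.84 and 9.34, in control cells. With 1 library each, whether such neighbours differ could not be tested.

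The rest of the tight junction was examined through 61 further genes, of which 47 had at least 10 reads. In these, 16 were higher and 9 lower by 1.5-fold (53.2% in all, against 30.9% of all genes), and their median log2 fold change was 0.31. Among the 19 other claudins, 11 had no read in either library and 6 had at least 10 reads. Of those 6, 4 were higher and 1 lower (83.3% in all), though 5 of them had under 100 reads. CLDN15, a claudin that forms sodium pores in the intestine, had the most reads of the list with 156 and 226, within 1.5-fold. CLDN23 had 13 and 46 reads and was 3.19-fold higher with an interval of 1.69 to 6.43. CLDN11, the claudin of myelin and of Sertoli cells, had 87 and 5 reads and was 19.3-fold lower with an interval of 7.96 to 61.0. CLDN11 lies on chromosome 3, like CLDN1, and the 2 went in opposite directions.

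Of 10 other membrane proteins of the junction, 9 had enough reads, with 4 higher, 1 lower and a median log2 fold change of 0.27. The share past 1.5-fold was 55.6%, against 30.9% of all genes. It rests mostly on few reads: JAM2 had 4 and 10, ESAM 9 and 17, ILDR2 4 and 18, and the lower ILDR1 12 and 2. None of these intervals lay wholly past 1.5-fold, and those of JAM2 and ESAM included no change. LSR, which marks the corners where 3 cells meet, had the most reads, 789 and 959, within 1.5-fold. CXADR, the coxsackievirus and adenovirus receptor, had 126 and 282 reads and was 2.02-fold higher with an interval of 1.63 to 2.51. MARVELD2 (tricellulin), a relative of occludin that lies beside OCLN on chromosome 5, had 548 and 496 reads and a log2 fold change of -0.29, within 1.5-fold.

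Of 16 plaque proteins, 5 were higher and 3 lower (50% in all, against 30.9% of all genes), with a median log2 fold change of 0.42. ARHGEF2 (GEF-H1), a guanine nucleotide exchange factor held at the junction by cingulin, had 174 and 846 reads and was 4.38-fold higher. YBX3, the Y-box factor that ZO-1 retains at the membrane, had the most reads, 2089 and 3537, and was 1.53-fold higher. The angiomotins diverged, with AMOTL2 at 59 and 138 reads (2.11-fold higher) and AMOTL1 at 106 and 36 (3.27-fold lower). AMOTL2 was nearly level by FPKM, at 2.72 and 2.88, so its difference depends on the unit.

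Of 16 polarity genes, 3 were higher, 4 lower and 9 within 1.5-fold, with a median log2 fold change of 0.07. The share past 1.5-fold was 43.8%, against 30.9% of all genes. PARD6A, an adaptor of the Par complex, had 79 and 334 reads and was 3.81-fold higher with an interval of 2.97 to 4.93. PARD3B had 50 and 166 reads and was 2.99-fold higher. LIN7A, a PDZ protein that joins the Crumbs complex, had 1485 and 214 reads and was 7.70-fold lower with an interval of 6.67 to 8.93. SCRIB, a basolateral polarity scaffold, had the most reads, 3178 and 2622, within 1.5-fold. Among the 61 further tight junction genes, 6 on chromosome 3 had at least 10 reads. Of these, 5 were below 0, as were 579 of the 666 genes of chromosome 3 with at least 50 reads. By 1.5-fold, 4 of the 6 were lower, against 15% of all genes, and the share for chromosome 3 alone is not given here. CLDN1 and the adherens junction genes are not among the 6, and the part of the chromosome-wide difference in their values was not tested.

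Transcription factors known to act on claudin or occludin genes went in both directions. Of 15 listed, 11 had enough reads, with 4 higher, 1 lower and a median log2 fold change of 0.39. The share past 1.5-fold was 45.5%, against 30.9% of all genes. SNAI2 (Slug), a repressor of claudins and occludin that binds the E-box shown above, had 494 reads in control cells and 0 in Akt1/2 DKO cells. Against a floor of 3 reads it was 183-fold lower, and the counting interval had a lower limit of 148-fold and no upper limit. Its relative SNAI1 had 1 and 28 reads, a ratio of 25.2 with an interval of 4.17 to 1032, and was named here after its values were seen. ZEB1 and ZEB2, further repressors of this group, had at most 1 read in either library. TWIST1, usually a driver of the mesenchymal state, had 7 and 122 reads and was 15.7-fold higher with an interval of 7.40 to 39.9. These factors thus did not move together.

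Among factors linked to epithelial differentiation, KLF4 had 141 and 763 reads and was 4.88-fold higher with an interval of 4.07 to 5.88. OVOL1 had 70 and 285 reads and was 3.67-fold higher with an interval of 2.82 to 4.84. SP1, a general activator that binds GC boxes, had the most reads, 1940 and 2270, within 1.5-fold. GRHL2, a grainyhead factor that activates CLDN4, had 1720 and 1373 reads and a log2 fold change of -0.48, also within 1.5-fold, and was named after its values were seen. Whether any of these factors bears on the claudin levels was not tested.

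Genes of the epithelial state outside the junction also differed between the libraries. EPCAM, a membrane protein that binds and stabilises CLDN7, had 206 and 843 reads and was 3.69-fold higher with an interval of 3.16 to 4.32. KRT8, a simple epithelial keratin and the luminal marker with the most reads, had 6408 and 12815 reads and was 1.80-fold higher. CDH1 (E-cadherin), the adhesion receptor of epithelial adherens junctions, had 5349 and 3343 reads and was 1.78-fold lower with an interval of 1.70 to 1.85. The intermediate filament gene VIM was 11.9-fold lower, with an interval of 9.47 to 15.0, and COL3A1, with 74 and 9 reads, was 9.12-fold lower. Other fibroblast markers went the opposite way, with COL1A1 at 55 and 106 reads (1.74-fold higher) and LUM at 5 and 35 reads (6.31-fold higher), so that 3 of the 6 with enough reads were higher and 2 lower. The luminal list did not move one way, with 4 of 12 markers higher and 6 lower. In both marker lists the share past 1.5-fold was 83.3%, against 30.9% of all genes. The kallikreins KLK2, KLK3 and KLK4 were 3.56-fold, 7.04-fold and 3.21-fold lower. HOXB13 and STEAP2 were 3.03-fold and 4.66-fold lower. The part of these differences in the claudin values was not tested.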

How the data were processed

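Total RNA from CWR22rv1 cells, 1 Akt1/2 knockout and 1 wild type library, was sequenced. The authors deposited a table with estimated counts and FPKM per gene and library. The submitters' processing notes name fastp 0.20.0, TopHat, Cufflinks, edgeR and GRCh38.p10, without role or order. A deposited comparison table (log2 fold change, p-value, FDR), an ontology table and a correlation table were not used. Rounding brought the estimated counts to whole reads (2173 genes had values that were not whole), which were then scaled by TMM (edgeR 4.0.16 in R 4.3.3). A library at 0 reads was set to a floor of 3 reads (0.301 and 0.280 CPM). Exact (Clopper-Pearson) 95% counting intervals were computed in Python 3.11.15 with scipy 1.17.1. Intervals and floors cover counting error only. Steps were tested on simulated data.

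Genes needed at least 10 reads in both libraries together. A 1.5-fold difference, the threshold the study used, was used as a description. Members and lists were chosen with earlier results of these data known. Besides members, AKT1 and AKT2, genes named from each list have at least 50 reads, a ratio of at least 2-fold with an interval excluding 1.5-fold, or the most reads of the list. MARVELD2, GRHL2, SNAI1, ZEB1, ZEB2, CDH1, COL1A1, LUM, DSP, the genes neighbouring claudins and the markers at or near 0 were added after their values were seen, and some genes that the rule names are not reported here. Chromosome medians used genes with at least 50 reads. Positions come from GENCODE 29 (GRCh38) and promoters from RefSeq (GRCh38.p14). Shared windows, neighbours within 500 kb and transcript length ratios were examined after seeing the data. Protein sequences were not used here. Alternatives were DESeq2 1.42.0 size factors, upper-quartile, total count and no scaling, FPKM with pseudocounts of 0.1 and 1, and other filters and thresholds.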

Additional observations from a re-analysis of the deposited data

How the results depend on the processing

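No paired analysis was possible because control and Akt1/2 DKO cells gave 1 library each, and for the same reason no replicate could be left out. No direction changed under any alternative, and 57 of 63 values of members stayed within their counting interval. With FPKM and a pseudocount of 1, log2 fold changes were 1.41 for CLDN1, -0.78 for F11R and -2.59 for AKT1, and with a pseudocount of 0.1 they were -0.80 for F11R and -2.65 for AKT1. A larger pseudocount pulls in the change of a gene as low as CLDN1, while for F11R and AKT1 the cause was not tested. With no scaling, which moves the median of all genes to 0.16, values were 2.40 for CLDN4, 0.22 for CLDN7, -0.47 for F11R, -2.16 for AKT1 and -1.82 for AKT2. Members past 1.5-fold numbered 5. They were 4 with total count scaling, 3 at 2-fold and 3 with intervals wholly past 1.5-fold. Other tight junction genes past 1.5-fold numbered 25. They were 15 with FPKM and a pseudocount of 1, 15 at 2-fold, and 16 with at least 100 reads, where fewer genes were tested. Over all genes, 30.9% passed 1.5-fold with at least 10 reads and 23.2% with at least 100 reads. Shares of all genes at 2-fold, by FPKM or by interval are not given here, so the counts at those settings cannot be read against them. Depth limits the low genes: with 0 control reads the ratio of CLDN1 has no upper limit.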

Other observations

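Other cell junctions were set beside the tight junction. Of 20 adherens junction and desmosome genes with at least 10 reads, 5 were higher and 4 lower by 1.5-fold. This was 45% in all, against 30.9% of all genes, and the median log2 fold change was -0.01. CTNNB1 (beta-catenin), on chromosome 3, had the most reads of the adherens junction list with 6885 and 4266, and was 1.79-fold lower. NECTIN3, also on chromosome 3, and NECTIN4 encode immunoglobulin-like adhesion proteins. They were higher, with 1 and 63 reads and 2 and 85 reads, ratios of 56.8 (interval 9.83 to 2278) and 38.3 (interval 10.3 to 321). Both thus had at most 2 reads in control cells, where CLDN1 had 0. In the desmosome, PKP3 had the most reads with 2337 and 2656. PKP2, a plaque protein, had 13 and 295 reads and was 20.5-fold higher with an interval of 11.8 to 38.9. DSC2, a desmosomal cadherin, was 2.93-fold higher at 44 and 143 reads, and PPL (periplakin) 2.63-fold higher at 23 and 67. DSP (desmoplakin), which ties desmosomes to keratin filaments, went the other way with 2125 and 1187 reads, 1.99-fold lower with an interval of 1.85 to 2.13.

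Around CLDN3 and CLDN4, 15 other genes with at least 50 reads lay within 500 kb, of which 5 were higher and 1 lower by 1.5-fold. Over all genes, 30.9% passed 1.5-fold with at least 10 reads and 23.2% with at least 100 reads. The log2 fold changes of these 15 neighbours ran from -0.64 to 1.77 with a median of 0.13. Those of CLDN3 (2.47) and CLDN4 (2.25) were both above the highest. The only such neighbour of CLDN1 was IL1RAP, with 16 and 69 reads and a log2 fold change of 1.96. Near CLDN12, which was level, 3 of 5 such neighbours were lower by 1.5-fold and 0 higher, against 15% of all genes that were lower. The 3 were STEAP1, STEAP2 and CFAP69, with log2 fold changes of -1.62, -2.22 and -2.16. GTPBP10 and CDK14, which overlap CLDN12, had log2 fold changes of 0.09 and 0.58.

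Reads divided by FPKM give a relative transcript length, whose ratio between the libraries had a median of 1 over 9209 genes, with 5% to 95% of genes between 0.887 and 1.16. F11R stood at 1.17 and CLDN12 at 1.13, while CLDN4, CLDN7, TJP1 and TJP3 were between 0.988 and 1.03. Which isoforms were present was not tested.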
